A study of Mus musculus with 2 samples.

Results

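The 42 genes described here encode proteins of DNA replication and of the entry into S phase. They were taken from a named list and not by a cutoff on measured values. That list was, however, chosen with earlier results of these data known. All 42 were listed in both count tables, among 22686 genes listed in either. They fall into 8 roles: licensing of origins, firing, polymerases and primase, the clamp with its loader and single strand binding, flap removal with ligation and uracil repair, nucleotide supply, chromatin assembly behind the fork, and G1/S control with the checkpoint. The data are single-cell RNA sequencing of CD3+CD5+ cells sorted from the spleen of mice 8 to 9 weeks old, in 2 libraries, 1 per genotype. LatY136F CD45-KO mice, called CD45-KO, lack CD45, the product of Ptprc and a tyrosine phosphatase of the leukocyte surface that acts on Src family kinases, and also carry the LatY136F mutation. LatY136F mice carry that mutation alone, a point change through which LAT, an adaptor of T cell receptor signalling, can no longer bind phospholipase C gamma. Such mice are known for an expansion of T helper 2-type cells. Both libraries thus come from mutant mice, and no wild-type library was analysed. The number of mice behind each library, and the promoter or cell type that would restrict the CD45 deletion, are not stated in the sources.

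As background, replication is prepared in G1, when Cdc6 and Cdt1 load the MCM2-7 helicase onto origins. In S phase the helicase is activated by Cdc45, the GINS complex and Mcm10, polymerases copy the strands on the sliding clamp PCNA, and nucleotide synthesis and histone deposition keep pace with the fork. Many of these genes are transcribed under E2F factors and reach their peak near the G1/S border, so that their RNA is used to mark dividing cells, such as T cells after receptor stimulation.

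E2F factors are known to bind GC-rich sites, and the letters TTTCGCGC, TTTGGCGC, TTTCCCGC and TTTGCCGC were searched on both strands in RefSeq promoter windows (GRCm38.p6) that run from 250 bases before a start to 50 after it. Windows were given for 36 of the 42 genes. At least 1 of the 4 words was found, in any window of the gene, in 15 of the 36 (41.7%), against 704 of 27025 genes (2.6%). Matches before the start were found in 8 of 36 (22.2%), against 2.16% of genes. The CCAAT word, read by the factor NF-Y, was found for 20 of the 36 genes (55.6%), against 41.1% of genes. A match describes the letters alone, and its absence says nothing about binding by a factor. Stretches before the start are shown for a pair of helicase subunits that hold the E2F words there, and for Rrm2, which had the lowest ratio between the libraries and none of those words in its window. Each stretch ends before the first exon annotated there. Capitals mark the E2F words in Mcm5 and Mcm6, where words on opposite strands overlap, and the CCAAT word in Rrm2. The stretches are chr8:75109329-75109467 (plus strand) for Mcm5, chr1:128359706-128359885 (minus strand) for Mcm6 and chr12:24708074-24708240 (plus strand) for Rrm2, and all are written 5′ to 3′ along the gene.
Mcm5: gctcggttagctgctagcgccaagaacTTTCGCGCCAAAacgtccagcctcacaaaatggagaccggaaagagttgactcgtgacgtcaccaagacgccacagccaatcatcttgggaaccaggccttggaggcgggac
Mcm6: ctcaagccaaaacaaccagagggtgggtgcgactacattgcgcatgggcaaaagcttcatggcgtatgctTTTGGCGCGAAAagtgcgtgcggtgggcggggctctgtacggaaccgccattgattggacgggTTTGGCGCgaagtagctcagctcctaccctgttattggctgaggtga
Rrm2: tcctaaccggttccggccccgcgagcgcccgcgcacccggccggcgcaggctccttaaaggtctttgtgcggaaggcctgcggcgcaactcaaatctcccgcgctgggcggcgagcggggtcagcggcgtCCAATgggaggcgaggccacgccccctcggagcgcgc

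In CD45-KO, 12845 cells gave 29268453 molecules counted by unique identifiers (UMIs), and in LatY136F 13775 cells gave 35300371 UMIs. Median depth was 1991 UMIs per cell in CD45-KO and 2153 in LatY136F. The libraries shared 223 cell indices. Cells were clustered without the 42 genes, and clusters were named from marker genes that are no members. Cells outside 1 cluster with B cell, plasma cell and monocyte markers are called T-like, 12742 in CD45-KO and 13721 in LatY136F. All 10 T cell markers were detected in them. Levels are CPM (UMIs of a gene per 1e+06 UMIs) from counts summed over a set of cells, and ratios are log2 of CD45-KO over LatY136F. With 1 library per genotype there is no replicate check and no p-value, and the 95% intervals cover counting error only. A gene is called lower or higher when the libraries differ by at least 1.5-fold with at least 20 UMIs over both. Ptprc RNA stood at 1179 CPM in CD45-KO and 1759 CPM in LatY136F T-like cells (log2 ratio -0.58). The sources do not name the targeted exons, so this level does not check the label.

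Over all T-like cells, the 42 genes were lower in CD45-KO as a group. Every gene had a ratio below 0, and 21 of 42 were lower by at least 1.5-fold, against 9.03% of all 12752 genes with that many UMIs. None was higher, against 8.19% of all genes, and no interval lay above 0, against 29.3%. The median ratio was -0.57, beside 0.02 over all those genes, and the ratios ranged between -1.67 for Rrm2 and -0.02 for Pold1. The counting interval lay below 0 for 41 of 42 genes, the exception being Pold1, against 25.7% of all genes. Summed over the 42 genes, the level was 1344 CPM in CD45-KO and 2075 CPM in LatY136F. The cycling-like class, a cluster of dividing cells, held 1.62% of T-like cells in CD45-KO and 5.28% in LatY136F. With the mix of clusters held equal between the libraries, the median was -0.15 and 0 of 42 genes were lower by 1.5-fold. The share of all genes past 1.5-fold was not computed with the mix held equal, so that count has no background beside it.

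**Figure D1:**
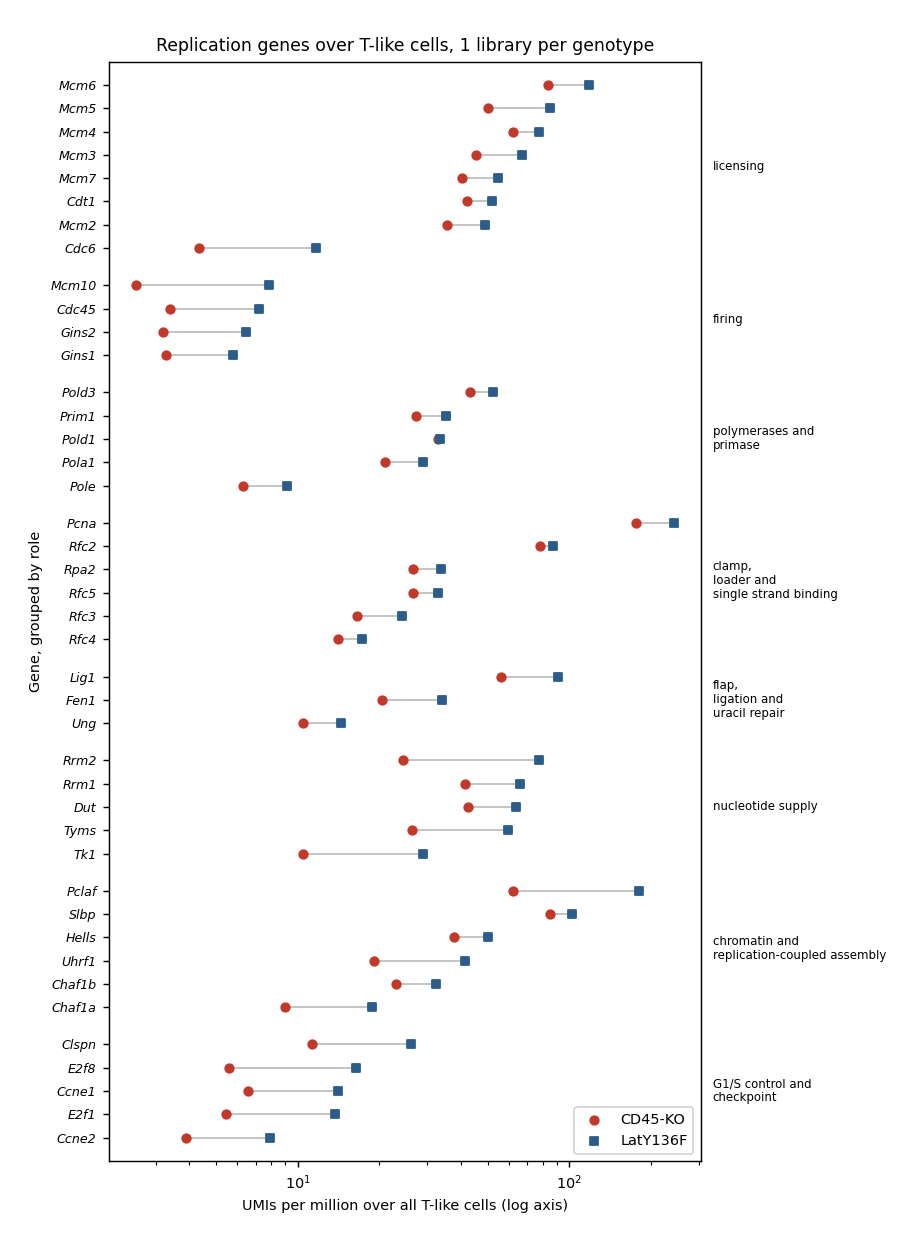
Level of each of the 42 genes over all T-like cells, in CPM on a log axis, with genes grouped by role; circles are the CD45-KO library and squares the LatY136F library, 1 library each. The circle lies left of the square for all 42 genes, with the widest gap at Rrm2 (24.4 in CD45-KO and 77.4 in LatY136F) and nearly none at Pold1.

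The licensing genes had modest ratios, with a median of -0.48 and 2 of 8 lower by 1.5-fold. Beside this count and those of the roles below, 9.03% of all genes were lower by 1.5-fold. Mcm6, a helicase subunit, stood at 83.6 CPM in CD45-KO and 118 CPM in LatY136F (-0.49, 95% interval -0.57 to -0.42). Mcm5, another subunit, stood at 50.3 CPM in CD45-KO and 85.1 CPM in LatY136F (-0.76, -0.85 to -0.67). Mcm4 stood at 62.0 CPM in CD45-KO and 77.1 CPM in LatY136F (-0.31). The 6 subunits of the ring thus differed unequally, between -0.76 for Mcm5 and -0.31 for Mcm4, and the Mcm5 and Mcm4 intervals did not overlap. The loading factors also stood apart from each other. Cdc6, the ATPase that recruits the helicase, was at 4.32 CPM in CD45-KO and 11.7 CPM in LatY136F (-1.43, -1.73 to -1.14). Cdt1, its partner, which is destroyed in S phase as a protein, was at 42.1 CPM in CD45-KO and 51.8 CPM in LatY136F (-0.30, -0.40 to -0.19).

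All 4 firing genes were lower by at least 1.5-fold, at low levels. Mcm10 stood at 2.54 CPM in CD45-KO and 7.87 CPM in LatY136F (-1.63, -2.02 to -1.25). Cdc45 stood at 3.38 CPM in CD45-KO and 7.22 CPM in LatY136F (-1.09), and Gins2 at 3.21 CPM in CD45-KO and 6.45 CPM in LatY136F (-1.01). Cdc45 and the GINS proteins complete the active helicase with the MCM ring. Gins1 was at 3.28 CPM in CD45-KO and 5.80 CPM in LatY136F (-0.82).

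The genes of the synthesis machinery differed least. None of the 5 polymerase and primase genes and none of the 6 clamp, loader and single strand binding genes was lower by 1.5-fold, with medians of -0.36 and -0.32. Pold1, the catalytic subunit of polymerase delta, stood at 32.8 CPM in CD45-KO and 33.4 CPM in LatY136F, with an interval of -0.15 to 0.10. Pold3, an accessory subunit of the same enzyme, stood at 43.3 CPM in CD45-KO and 52.3 CPM in LatY136F (-0.27). Prim1, the catalytic primase subunit, was at 27.4 CPM in CD45-KO and 35.1 CPM in LatY136F (-0.36). Pola1 and Pole, the catalytic subunits of polymerases alpha and epsilon, had ratios of -0.47 and -0.54. Pcna, the sliding clamp, stood at 176 CPM in CD45-KO and 242 CPM in LatY136F (-0.46, -0.51 to -0.41). Rfc2, of the clamp loader, stood at 78.2 CPM in CD45-KO and 86.8 CPM in LatY136F (-0.15, -0.23 to -0.07). The other loader subunits had ratios between -0.55 for Rfc3 and -0.29 for Rfc4. Rpa2, of the single strand binding complex, was at 26.5 CPM in CD45-KO and 33.7 CPM in LatY136F (-0.34).

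Behind the fork, 2 of the 3 genes of flap removal, ligation and uracil repair were lower. Lig1, the ligase that joins Okazaki fragments, stood at 55.8 CPM in CD45-KO and 90.8 CPM in LatY136F (-0.70). Fen1, the flap endonuclease, stood at 20.4 CPM in CD45-KO and 34.1 CPM in LatY136F (-0.74). Ung, which removes uracil from DNA, was at 10.5 CPM in CD45-KO and 14.4 CPM in LatY136F (-0.46, -0.67 to -0.25).

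All 5 genes of nucleotide supply were lower, with a median of -1.17. Rrm2, the small subunit of ribonucleotide reductase, stood at 24.4 CPM in CD45-KO and 77.4 CPM in LatY136F (-1.67, -1.79 to -1.55). Rrm1, the large subunit of the same enzyme, stood at 41.2 CPM in CD45-KO and 65.6 CPM in LatY136F (-0.67, -0.78 to -0.57). The subunits of this enzyme thus had ratios whose intervals lay well apart. Tyms, thymidylate synthase, was at 26.5 CPM in CD45-KO and 59.6 CPM in LatY136F (-1.17). Tk1, the thymidine kinase of the salvage path, was at 10.5 CPM in CD45-KO and 29.1 CPM in LatY136F (-1.47). Dut, which clears dUTP, was at 42.2 CPM in CD45-KO and 63.5 CPM in LatY136F (-0.59) and lay just past the 1.5-fold threshold.

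The chromatin genes were split, with 3 of 6 lower. Pclaf, a PCNA-binding protein, stood at 61.9 CPM in CD45-KO and 180 CPM in LatY136F (-1.54, -1.62 to -1.47). Uhrf1, which carries DNA methylation over to new strands, stood at 19.2 CPM in CD45-KO and 41.4 CPM in LatY136F (-1.11). Chaf1a, the large subunit of the histone chaperone CAF-1, was at 8.99 CPM in CD45-KO and 18.8 CPM in LatY136F (-1.06, -1.28 to -0.85). Its partner Chaf1b differed less, at 23.0 CPM in CD45-KO and 32.3 CPM in LatY136F (-0.49, -0.63 to -0.35). Slbp, which binds histone mRNA, stood at 84.9 CPM in CD45-KO and 102 CPM in LatY136F (-0.27). Hells, a chromatin remodeller, stood at 37.6 CPM in CD45-KO and 50.03 CPM in LatY136F (-0.41).

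All 5 G1/S control and checkpoint genes were lower by at least 2-fold, against 541 of all 12752 genes with enough UMIs. E2f8, a repressor of the E2F family, stood at 5.61 CPM in CD45-KO and 16.4 CPM in LatY136F (-1.55, -1.81 to -1.30). E2f1, an activator of the family, stood at 5.47 CPM in CD45-KO and 13.7 CPM in LatY136F (-1.32, -1.59 to -1.06). Clspn, which relays stalled forks to the checkpoint kinase, was at 11.3 CPM in CD45-KO and 26.2 CPM in LatY136F (-1.21). The E-type cyclins, partners of Cdk2 at the G1/S border, had ratios of -1.10 for Ccne1 and -1.04 for Ccne2.

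The cycling-like class is 1 cluster in which all 26 cycling markers were raised, among them Ccna2, Hmmr and Nusap1, and none of them is among the 42 genes. It held 206 of 12742 T-like cells in CD45-KO (1.62%, exact 95% interval 1.40 to 1.85) and 725 of 13721 in LatY136F (5.28%, 4.92 to 5.67). Its cells had a median of 6572.5 UMIs in CD45-KO and 5973 in LatY136F, and the T-like cells outside it 1973 UMIs in CD45-KO and 2103 in LatY136F. It held 29.8% of the UMIs of the 42 genes in CD45-KO and 53.3% in LatY136F. When a cell was counted as cycling from 3 or more markers with a UMI instead of from the cluster, the shares were 2.43% in CD45-KO and 8.36% in LatY136F. Of the cells near that line, 549 in CD45-KO and 1274 in LatY136F had 2 markers, and 91 in CD45-KO and 351 in LatY136F had 3.

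Inside the cycling-like class the 42 genes stood at similar levels in both libraries. None was lower and none higher by 1.5-fold, against 6.8% and 8.66% of all 9835 genes with enough UMIs, and the median ratio was -0.09. The sums were 7236 CPM in CD45-KO and 7729 CPM in LatY136F (-0.09, -0.13 to -0.06), so the summed level was slightly lower in CD45-KO. With each cell thinned to 1000 UMIs, the median was -0.12, with 4 genes lower and 2 higher by 1.5-fold. The share of all genes was not computed for those thinned counts. Rrm2 stood at 368 CPM in CD45-KO and 475 CPM in LatY136F (-0.37, -0.50 to -0.24). Pcna stood at 597 CPM in CD45-KO and 700 CPM in LatY136F (-0.23, -0.33 to -0.13). Tyms had the lowest ratio, at 191 CPM in CD45-KO and 251 CPM in LatY136F (-0.40, -0.59 to -0.22). With Tk1, Lig1, Clspn and Pclaf, these are the 7 genes whose interval lay below 0, against 8.62% of all genes. Nucleotide supply holds 3 of the 7. Rfc4 and Rfc5, of the clamp loader, were the 2 genes with an interval above 0, against 11.5% of all genes. Rfc4 stood at 94.3 CPM in CD45-KO and 76.5 CPM in LatY136F (0.30, 0.02 to 0.58), and Rfc5 at 135 CPM in CD45-KO and 113 CPM in LatY136F (0.25, 0.02 to 0.48). Mcm5, whose ratio over all T-like cells was the lowest of the MCM ring, stood at 349 CPM in CD45-KO and 340 CPM in LatY136F (0.04, -0.10 to 0.18).

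Markers of other cells differed within this class. The 9 plasma cell markers summed to 5092 CPM in CD45-KO and 448 CPM in LatY136F, with none at 0. In 4 CD45-KO cells and 1 LatY136F cell these markers held at least 1% of UMIs. Without those cells the marker sums were 355 CPM in CD45-KO and 352 CPM in LatY136F, the median ratio of the 42 genes was -0.09, and 0 genes passed 1.5-fold, while the intervals of Rfc4 and Lig1 then held 0 and that of Cdt1 lay below 0. The NK markers summed to 311 CPM in CD45-KO and 121 CPM in LatY136F. Cd8a stood at 27.7 CPM in CD45-KO (44 UMIs) and 2.19 CPM in LatY136F (11 UMIs). Outside the class both went the other way. There the NK markers summed to 71.2 CPM in CD45-KO and 131 CPM in LatY136F, and Cd8a stood at 0.295 CPM in CD45-KO and 2.65 CPM in LatY136F. The part of cells with NK markers or Cd8a in the results was not tested. The class also rested on cells of high depth: leaving out the top 2% of cells by UMIs, with the clusters of the full data kept, removed 121 of 206 cells in CD45-KO and 229 of 725 in LatY136F, and the median ratio was then -0.35 with 8 genes lower by 1.5-fold. With clusters made anew without those cells, the median was -0.71 and 30 genes were lower, in a cluster that drew 43 of its 130 CD45-KO and 23 of its 531 LatY136F cells from the cluster with markers of other cell types. In the clusters of the full data, 85 CD45-KO and 496 LatY136F cells were left. The share of all genes past 1.5-fold was not computed for either setting, so the 8 and 30 genes have no background beside them.

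**Figure D2:**
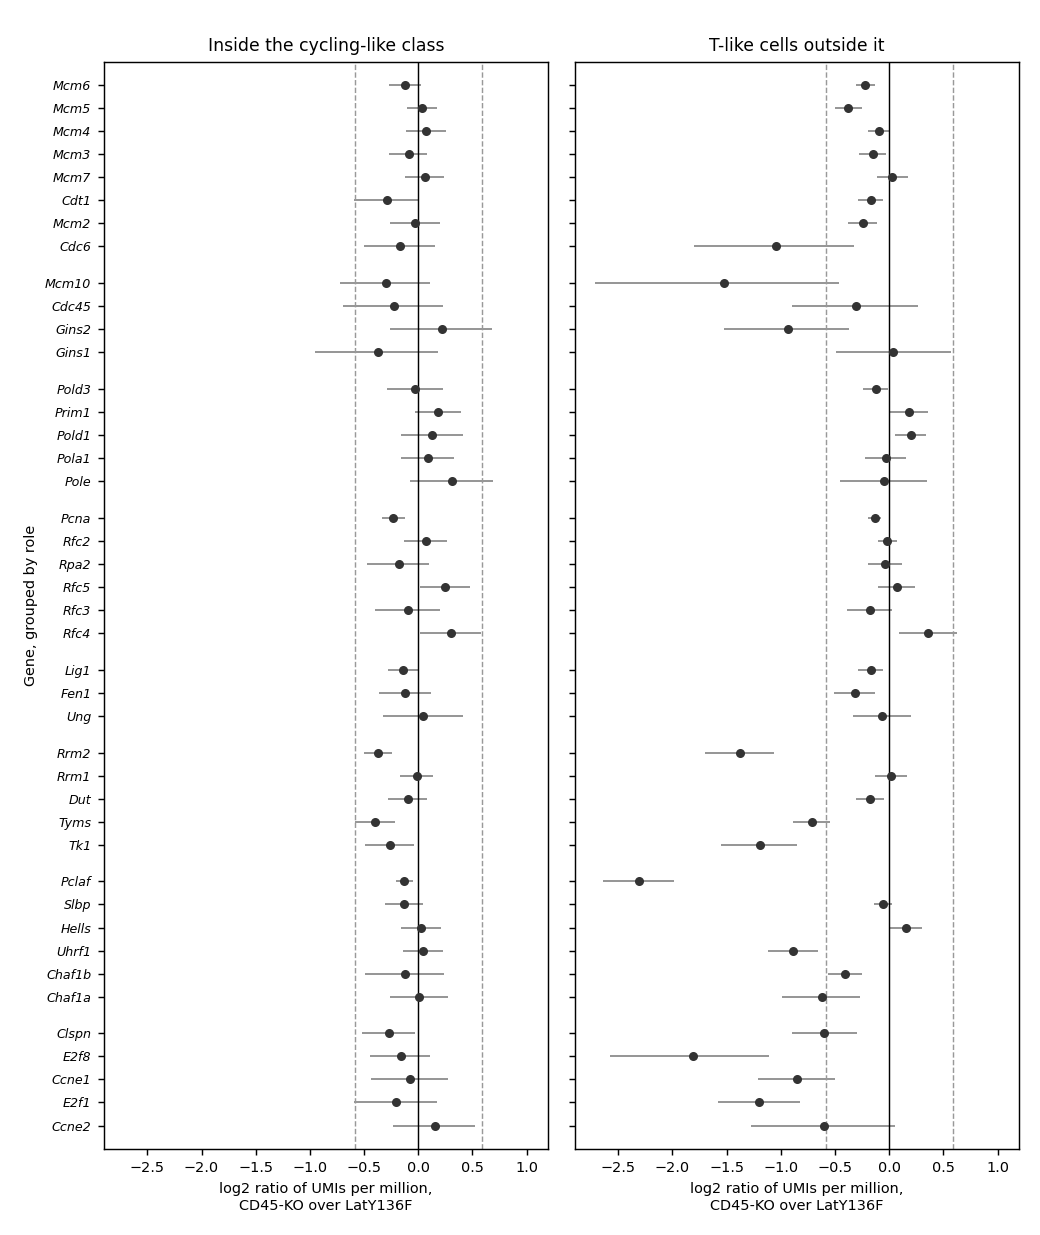
Log2 ratio of CPM, CD45-KO over LatY136F, for each of the 42 genes inside the cycling-like class (left) and in T-like cells outside it (right); bars are exact 95% counting intervals and dashed lines mark 1.5-fold. Inside the class all 42 points lie between the dashed lines, and outside it 14 lie left of them, the farthest being Pclaf at -2.31.

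Outside the cycling-like class the genes divided. The median ratio was -0.18, and 14 of 42 genes were lower by 1.5-fold, against 7.76% of all 12505 genes with enough UMIs, while none was higher, against 7.84%. The interval lay below 0 for 24 of 42 genes, against 24% of all genes. All 5 G1/S control genes, 3 of 5 nucleotide supply genes and 3 of 6 chromatin genes were among the 14, as were 2 of 4 firing genes and 1 of 8 licensing genes. None of the 14 came from the polymerase, clamp or flap and ligation groups. Of the 14, Ccne2 had an interval that held 0 (-1.28 to 0.06). Mcm10, Gins2, Cdc6, E2f8 and Ccne2 lay under 3 CPM in both libraries, so the division by role rests partly on low counts. Pclaf stood at 3.47 CPM in CD45-KO and 17.2 CPM in LatY136F (-2.31, -2.64 to -1.99). Rrm2 stood at 4.21 CPM in CD45-KO and 10.9 CPM in LatY136F (-1.38, -1.70 to -1.06). E2f1 stood at 3.06 CPM in CD45-KO and 7.03 CPM in LatY136F (-1.20, -1.58 to -0.83). All 3 stood far higher inside the class, where Pclaf was at 1057 CPM in CD45-KO and 1157 CPM in LatY136F. Other genes had levels outside that were closer between the libraries. Pcna stood at 151 CPM in CD45-KO and 166 CPM in LatY136F (-0.13), and Slbp at 77.5 CPM in CD45-KO and 80.5 CPM in LatY136F (-0.06, -0.14 to 0.03). Rrm1, in contrast to Rrm2, stood at 25.8 CPM in CD45-KO and 25.5 CPM in LatY136F (0.02, -0.13 to 0.17). The interval lay above 0 for 4 genes, against 27.5% of all genes: Rfc4 (0.36), Pold1 (0.20), Prim1 (0.18) and Hells (0.15). Summed over the 42 genes, the level was 998 CPM in CD45-KO and 1131 CPM in LatY136F.

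The 26 cycling markers were themselves lower outside the class, at a summed 204 CPM in CD45-KO and 333 CPM in LatY136F. Cells outside with no UMI of any of these markers made up 72.5% of the outside cells in CD45-KO and 56.3% in LatY136F. In those cells alone, 41 genes had at least 20 UMIs and the median ratio was -0.15. Of the 41, 9 were lower by 1.5-fold, against 6.87% of all genes in these cells, and 0 higher, against 7.02%. Pclaf stood there at 1.24 CPM in CD45-KO and 12.4 CPM in LatY136F (-3.31, -4.01 to -2.68). Rrm2 stood there at 3.62 CPM in CD45-KO and 9.58 CPM in LatY136F (-1.40, -1.84 to -0.98). Both genes were thus lower in CD45-KO also among cells with no cycling marker detected. The interval lay above 0 for 4 of the 41, against 22.8% of all genes: Ung (0.53, 0.13 to 0.94), Rfc4 (0.39), Prim1 (0.31) and Hells (0.22). Whether free RNA from cycling cells, which made up a larger share of LatY136F cells, contributes to these counts was not tested.

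The genes differed widely in how much of their RNA lay in the cycling-like class. In LatY136F the class held a median of 57.2% of a gene's UMIs, between 25.1% for Chaf1b and 91.8% for Pclaf. In CD45-KO the median was 33.0%, between 9.85% for Cdt1 and 94.7% for Pclaf. In CPM, Pclaf was 305-fold higher inside than outside in CD45-KO and 67.5-fold in LatY136F, and Rrm2 87.5-fold in CD45-KO and 43.6-fold in LatY136F. Cdt1 was 1.86-fold higher in CD45-KO and 2.02-fold in LatY136F. Genes with more of their LatY136F UMIs in the class had lower ratios over all T-like cells. Across the 42 genes, Pearson's r was -0.85 and Spearman's rho -0.82, as a description over genes measured in the same 2 libraries and not over independent samples. Both axes use the LatY136F counts. The class held 5.54% of T-like UMIs in CD45-KO and 14.3% in LatY136F. With similar levels inside it in both libraries, a gene's share there enters its ratio by calculation. The relation was thus largely fixed in advance and is no separate result. The 27 genes with at least 50% of their UMIs in the class had a median ratio of -1.04, and the 15 others a median of -0.34. E2f1 lay below that trend, at 56.0% and -1.32, and Rfc4 above it, at 63.6% and -0.29.

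**Figure D3:**
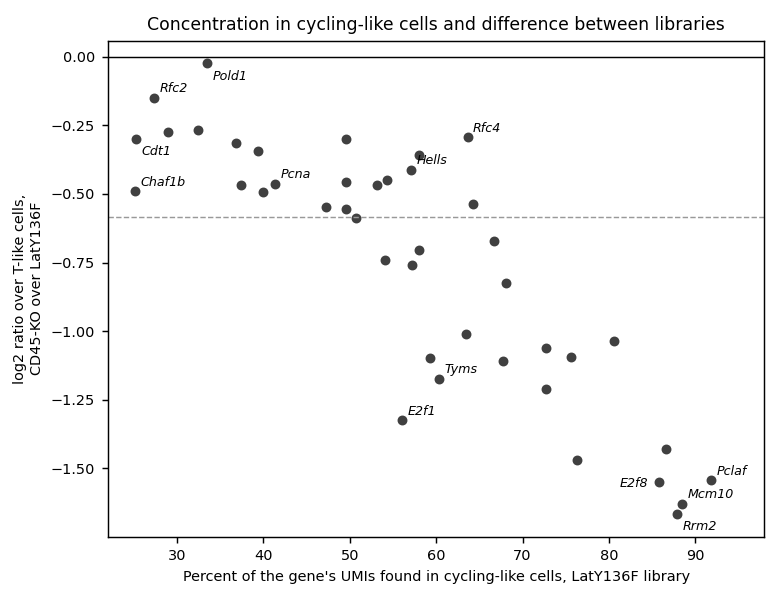
Share of a gene's LatY136F UMIs that lay in cycling-like cells (horizontal, percent) against the log2 ratio over all T-like cells, CD45-KO over LatY136F (vertical), 1 point per gene for 42 genes; the dashed line marks 1.5-fold lower. Pclaf, Rrm2, Mcm10 and E2f8 lie at the lower right, and Pold1, Rfc2 and Cdt1 at the upper left.

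Within the cycling-like class the 42 genes were set against the number of G2/M markers detected in a cell, and no phase was assigned. Cells with UMIs of 3 or more of 10 G2/M markers made up 158 of 206 in CD45-KO (76.7%, 70.3 to 82.3) and 531 of 725 in LatY136F (73.2%, 69.9 to 76.4). They were deeper than the other cycling cells, with a median of 7332.5 against 5271 UMIs in CD45-KO and 6561 against 5029.5 in LatY136F. Most replication genes were lower in the cells with more G2/M markers. That held for 36 of 42 genes in CD45-KO and 37 of 42 in LatY136F, with median log2 ratios, high over low, of -0.67 in CD45-KO and -0.69 in LatY136F. Over all genes, 51.8% in CD45-KO and 54.6% in LatY136F had ratios below 0. Ung had ratios of -1.88 in CD45-KO and -1.98 in LatY136F, E2f1 -1.75 in CD45-KO and -1.58 in LatY136F, and Cdc6 -1.41 in CD45-KO and -1.87 in LatY136F. Pclaf went the other way in both libraries, at 0.60 (0.38 to 0.82) in CD45-KO and 0.36 (0.26 to 0.46) in LatY136F. Rrm1, Rrm2 and Tyms also had ratios above 0 in both libraries, although of their 6 intervals only that of Rrm2 in CD45-KO lay above 0. Between the libraries, 0 of 42 genes differed by 1.5-fold in the cells with more G2/M markers, where 7.44% of all genes were lower and 8.66% higher. In the others, 48 cells in CD45-KO and 194 in LatY136F, 2 were lower and 3 higher, against 15% and 13.1% of all genes.

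Per cell, each cell was thinned to 1000 UMIs so that depth did not set the number of genes seen, which left out 357 CD45-KO and 430 LatY136F cells. Of the T-like cells, 7.53% in CD45-KO (7.07 to 8.01) and 12.1% in LatY136F (11.6 to 12.7) held UMIs of 3 or more of the 42 genes. Before thinning the shares were 27.2% in CD45-KO and 35.9% in LatY136F. Inside the cycling-like class the shares were 71.8% in CD45-KO and 78.0% in LatY136F, with overlapping intervals, and outside it 6.45% in CD45-KO and 8.34% in LatY136F. For comparison, cells outside that carried 3 or more naive T cell markers, had 3 or more of the genes in 6.60% of CD45-KO and 9.16% of LatY136F cells, at median depths of 2359.5 UMIs in CD45-KO and 2580 in LatY136F before thinning. The shares outside the class were no higher than these. The naive-marked cells are not shown to be free of dividing cells, however. Among them, 5 or more of the genes were seen in 0.77% in CD45-KO and 2.12% in LatY136F. The comparison therefore cannot tell whether dividing cells lie outside the class. Counted by 3 or more cycling markers, 309 CD45-KO and 1147 LatY136F cells were cycling. The class held 206 and 725, so some cells with that many markers lay outside it. Of the outside cells with 3 or more of the genes, 244 of 785 in CD45-KO and 539 of 1048 in LatY136F carried a cycling marker. Of all cells with 3 or more of the genes, 148 of 933 in CD45-KO (15.9%, 13.6 to 18.4) and 565 of 1613 in LatY136F (35.0%, 32.7 to 37.4) were in the cycling-like class. With 5 or more genes the shares of T-like cells were 1.51% in CD45-KO and 4.26% in LatY136F. Among single genes in thinned cells, Pclaf was seen most often inside the class, in 54.9% of cells in CD45-KO and 61.2% in LatY136F. Pcna was next, in 35.0% of cells in CD45-KO and 44.6% in LatY136F. Outside the class Pclaf had a UMI in 0.22% of CD45-KO and 1.38% of LatY136F cells.

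**Figure D4:**
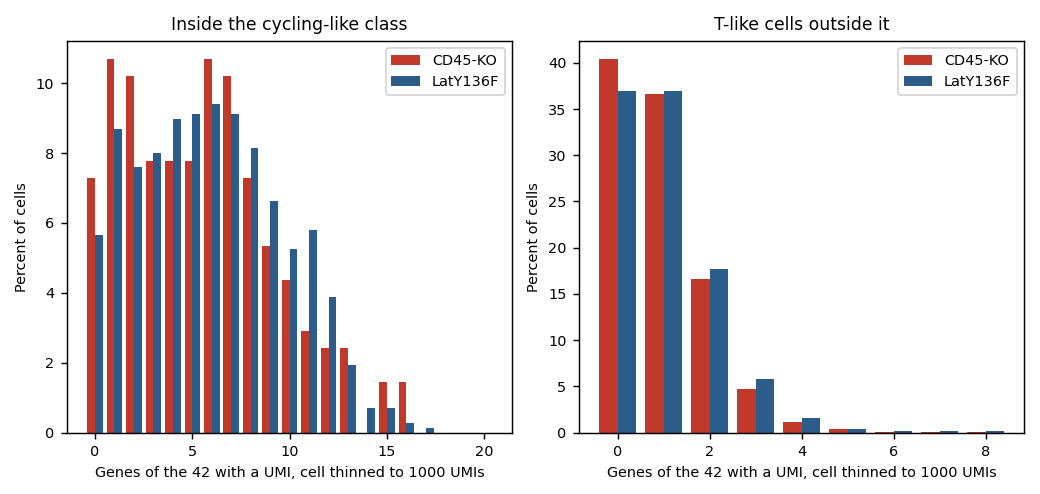
Percent of cells (vertical) by the number of the 42 genes with a UMI after thinning each cell to 1000 UMIs (horizontal), inside the cycling-like class (left) and outside it (right), with CD45-KO bars left of LatY136F bars; the vertical scales differ and the right panel stops at 8 genes. Inside the class the bars spread widely in both libraries, with 71.8% of CD45-KO and 78.0% of LatY136F cells at 3 or more, and outside it most cells hold 0 or 1 gene.

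Across the 9 clusters the summed level of the 42 genes was far highest in the cycling-like class, and in each cluster the CD45-KO sum was below the LatY136F sum, with intervals that held 0 in an unnamed cluster led by Egr3, Nr4a1 and Id3 and in the cluster left out of the T-like cells. Outside the cycling-like class, the lowest ratios among T-like cells were in 2 clusters with overlapping intervals. The first was led by Gzmb, Ifi204 and F2rl2 and stood at 884 CPM in CD45-KO and 1124 CPM in LatY136F (-0.35, -0.42 to -0.27). That cluster held 632 CD45-KO and 3901 LatY136F cells. The second, the Tfh-like cluster, named from markers of follicular helper T cells, stood at 1375 CPM in CD45-KO and 1716 CPM in LatY136F (-0.32, -0.41 to -0.23). The interferon-response-like cluster stood at 907 CPM in CD45-KO and 1059 CPM in LatY136F (-0.22, -0.44 to -0.01), while the median ratio of the 14 genes with enough UMIs in it was 0.02. The 4 other unnamed clusters had ratios of their sums between -0.14 and -0.08. The largest of them in CD45-KO, led by Hs3st3b1, Swap70 and Selenop, held 5611 CD45-KO and 1834 LatY136F cells and stood at 968 CPM in CD45-KO and 1068 CPM in LatY136F.

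**Figure D5:**
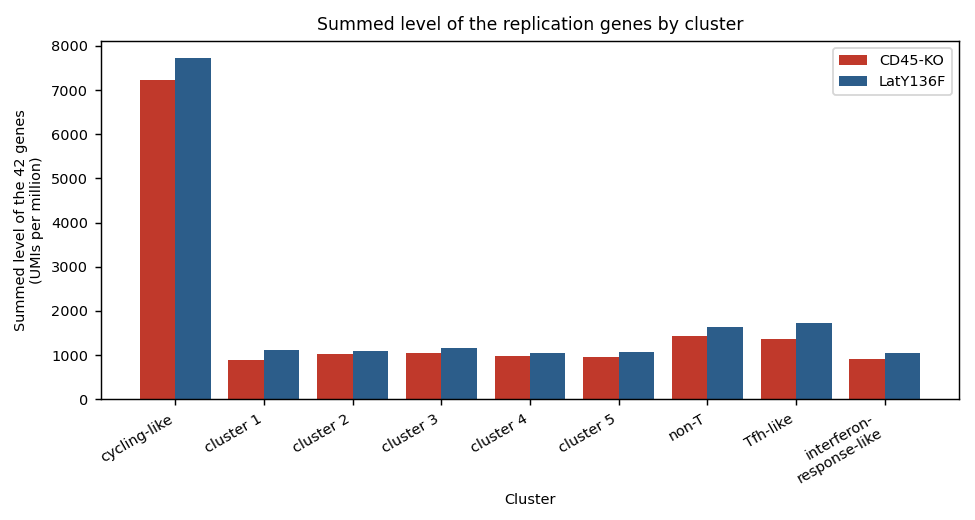
Summed level of the 42 genes in CPM (vertical) in each of the 9 clusters (horizontal), with the CD45-KO bar left of the LatY136F bar; unnamed clusters carry numbers. The cycling-like bars reach 7236 in CD45-KO and 7729 in LatY136F, and the next highest bar, that of Tfh-like cells in LatY136F, reaches 1716.

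A wider list, of other replication and G1/S control genes that are no members, gives the setting. Of these 66, 19 were lower by 1.5-fold over T-like cells and 0 higher, against the same 9.03% and 8.19% of all genes. The median ratio of the 66 was -0.21. Asf1b, a histone chaperone, stood at 18.997 CPM in CD45-KO and 39.7 CPM in LatY136F (-1.06). Cdk2, the kinase that E-type cyclins activate, stood at 32.2 CPM in CD45-KO and 60.3 CPM in LatY136F (-0.90), and Tipin, of the fork protection complex, at 17.3 CPM in CD45-KO and 29.0 CPM in LatY136F (-0.74). Inside the cycling-like class 0 of the 66 were lower and 3 higher by 1.5-fold, against 6.8% and 8.66% of all genes, with a median of -0.01. Of Asf1b, Cdk2 and Tipin, Cdk2 was the one whose interval lay below 0 there, at 116 CPM in CD45-KO and 154 CPM in LatY136F (-0.41, -0.65 to -0.18). Outside the class 7 of 66 were lower and 3 higher, near the 7.76% and 7.84% of all genes, with a median of -0.03. There Cdk2 stood at 27.3 CPM in CD45-KO and 44.6 CPM in LatY136F (-0.71, -0.84 to -0.57).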

How the data were processed

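CD3+CD5+ spleen cells were captured on BD Rhapsody for whole transcriptome libraries, per the labels' protocols. The deposited tables hold counts of molecules (UMIs) per cell and gene, without further normalization. Per the file headers, the authors used the BD pipeline 1.9.1 with GRCm38 and GENCODE M19. Other versions stand elsewhere (pipeline 2.0 in the series' text, GRCm39 in the submitters' processing notes), and the headers were followed. No map of cells to sample tags was used, so each library is 1 sample. Gene positions came from GENCODE M21.

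Genes missing from a table counted as 0. Kept were cells that had 200 genes or more and no more than 25% mitochondrial UMIs (12834 CD45-KO, 13747 LatY136F). Clustering used scanpy 1.11.5 (2000 variable genes, 30 components, 15 neighbours, Leiden resolution 0.8) without the 42 genes, Ptprc, and ribosomal, mitochondrial, sex-linked and antigen receptor genes. To be named, a cluster needed 3 markers raised by 1 or more on the log2 scale and seen in 10% of its cells, 1 of them among the top 10 genes, and this rule was set after seeing the data. No doublet caller was run, and doublets were kept. Ratio intervals are exact conditional binomial and shares exact Clopper-Pearson. The ratio intervals were run on counts simulated without spread between cells, as the intervals themselves assume. That run checks the calculation and not how well the intervals suit real counts. Spread between cells, PCR and capture are not covered by them.

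The members, lists and markers were chosen with earlier results of these data known. The text names up to 3 members per role by LatY136F level, the 5 lowest and 5 highest ratios, and the 4 widest ratios among other replication and G1/S control genes with at least 20 CPM. Further members were named after their values were seen. A gene that this rule names is not reported here. The alternatives cover filters, thresholds, clustering, scaling and cell mix.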

Additional observations from a re-analysis of the deposited data

Results flagged for a closer look

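The 1 cluster left out of the T-like cells also held UMIs of the 42 genes, 819 in its 92 CD45-KO cells and 169 in its 26 LatY136F cells, which is 1442 CPM in CD45-KO and 1646 CPM in LatY136F. It was looked at again because these cells enter none of the comparisons over T-like cells. Its leading genes were Lyz2, Ccl6 and Plbd1, and 21 of the 26 cycling markers were raised in it as well. After thinning, 15 of 90 CD45-KO cells (16.7%, exact 95% interval 9.64 to 26.0) and 1 of 22 LatY136F cells (4.55%, 0.12 to 22.8) held 3 or more of the 42 genes. The intervals overlap, and the source of these UMIs was not tested.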

How the results depend on the processing

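Each result was run under 8 to 14 of the 17 settings, and none changed direction under those. The median ratio outside the cycling-like class stayed between -0.20 and -0.14. Over all T-like cells the median was -0.39 with cells weighted equally and -0.15 with the mix of clusters held equal, where 0 genes instead of 21 were lower by 1.5-fold. With the mix held equal, the share of all genes was not computed. The share of cycling-like cells was 2.29% in CD45-KO and 6.55% in LatY136F with at most 10% mitochondrial UMIs, 1.03% in CD45-KO and 3.94% in LatY136F without the top 2% of cells by UMIs and with new clusters, 0.678% in CD45-KO and 3.69% in LatY136F without them in the clusters of the full data, and 2.43% in CD45-KO and 8.36% in LatY136F by 3 or more cycling markers per cell. Without the top 2%, the median inside the class was -0.71 with new clusters (30 genes lower) and -0.35 in the clusters of the full data (8 lower). For these counts the share of all genes was not computed. That new cluster took 43 of its 130 CD45-KO and 23 of its 531 LatY136F cells from the cluster left out of the T-like cells. The share of cells with 3 or more genes was then 6.72% in CD45-KO and 10.7% in LatY136F with new clusters, and 6.71% in CD45-KO and 10.7% in LatY136F in those of the full data. The settings with the clusters of the full data, and those without cells rich in plasma cell markers, were chosen after seeing the data. The cause of these shifts was not tested. No paired analysis was possible because each genotype has 1 library, and for the same reason no replicate could be left out. Depth limits the low genes: outside the class, Mcm10, Cdc6, E2f8, Gins1, Gins2, Cdc45 and Ccne2 lay under 3 CPM in both libraries.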
